A study of Mus musculus with 18 samples.

Results

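The replication-dependent histone genes encode the bulk histones that package newly copied DNA, and 70 of the 55401 genes in the expression tables belong to them. They were taken by name, as every gene whose GENCODE M21 symbol starts with Hist1h, Hist2h, Hist3h or Hist4h. By symbol, 6 belong to the linker histone class H1, 20 to H2A, 19 to H2B, 12 to H3 and 13 to H4. The symbols place 56 in the Hist1 cluster on chromosome 13, 10 in the Hist2 cluster on chromosome 3 and 3 in the Hist3 cluster on chromosome 11. Hist4h4 lies alone on chromosome 6, and Hist1h2al lies outside its cluster, at base 51202727 of chromosome 13. The annotation calls 67 of the members protein coding and 3 pseudogenes, namely Hist1h2aj, Hist1h2al and Hist3h2bb-ps. All 70 were followed in poly(A) RNA from 18 libraries of mouse embryonic stem cells and of the gastruloids made from them. Gastruloids are aggregates of stem cells that develop embryo-like tissues in a dish. All groups carry the same HA-Rnaseh1 knock-in in 1 line, RHKI, made from E14Tg2a. Rnaseh1 encodes an RNase H, an enzyme that cuts RNA paired with DNA. The 6 groups of 3 libraries are doxycycline-treated (Dox) and control cells at day 0 (0 h), Dox and control gastruloids at day 3 (72 h), and Dox and control gastruloids at day 5 (120 h). Stem cells in 2i/LIF medium received 500 ng/ml of Dox over 48 h before aggregation, and the labels do not say whether it was continued. No age or sex applies, and the labels name neither a clone number nor a separate culture per replicate, so p-values measure only the spread between these samples.

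Most messenger RNAs end in a poly(A) tail, but the mRNAs of replication-dependent histone genes end in a conserved stem-loop that the stem-loop binding protein Slbp holds during 3′ end cleavage, export and translation. They accumulate in S phase, when DNA is copied, and are degraded when DNA synthesis stops. A library prepared by poly(A) selection therefore captures only a part of them, such as copies that were read through to a downstream poly(A) site, and their level here is not the level of all histone mRNA. In bulk samples, fewer cells of a type and less RNA per cell cannot be told apart.

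The stem-loop letters are shown first because they define how these mRNAs end. The pattern of GG, any 2 bases, CTT, any base, T, any base, AG, any 2 bases and CC was searched on the transcribed strand of every annotated transcript and was found in 46 of the 70 members, in 8 spellings. The spelling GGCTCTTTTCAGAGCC was carried by 26 members of the H1, H2A, H2B and H3 classes, and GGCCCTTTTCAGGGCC by 7 members, all H4. The sites of 7 members described below are printed with up to 5 flanking bases, with the stem-loop in capitals (GENCODE M21 on GRCm38).
Hist1h1e (chr13:23621782-23621797, minus strand): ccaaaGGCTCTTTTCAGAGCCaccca
Hist1h2ap (chr13:21833029-21833044, minus strand): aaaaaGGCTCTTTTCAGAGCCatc
Hist1h2bk (chr13:22036300-22036315, plus strand): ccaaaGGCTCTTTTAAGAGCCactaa
Hist3h2ba (chr11:58949349-58949364, plus strand): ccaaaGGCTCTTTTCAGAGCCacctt
Hist1h3c (chr13:23745047-23745062, minus strand): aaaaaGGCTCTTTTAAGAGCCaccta
Hist1h4h (chr13:23531458-23531473, plus strand): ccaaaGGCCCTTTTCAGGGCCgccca
Hist1h4n (chr13:21831798-21831813, minus strand): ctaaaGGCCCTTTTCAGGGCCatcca
Hist1h2ap, Hist1h2bk, Hist1h4h and Hist1h4n are annotated to end within 60 bases of the stem-loop, as 22 members are, whereas the transcripts of Hist1h1e, Hist1h3c, Hist3h2ba and 21 further members are annotated to run on beyond that. The other 24 members have no such letters in their annotated transcripts. Absence of the letters says only that the annotated transcript does not hold them.

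Promoters of 62 members could be matched to RefSeq (GRCm38.p6), each as 250 bases before to 50 bases after the start. On either strand, CCAAT occurred in 85.5% of them, against 37.4% of all 32851 promoters of the same length. TATAAA occurred in 56.5% of the histone promoters and 13.6% of all promoters, ATTTGCAT in 21% and 1.74%, and AAACACA in 14.5% and 7.18%. Each motif was counted on its own, so matches of different motifs that share bases were counted for each. CCAAT was found in all matched H1, H2A, H2B and H3 promoters and in 3 of 12 H4 promoters, ATTTGCAT in H2A and H2B promoters only, and AAACACA in 5 of 6 H1 promoters. The 160 bases before the start are printed for 1 member of each class, with any of the 4 motifs in capitals on either strand, because these members carry the changes described below.
Hist1h1e (RefSeq H1f4, chr13:23622559-23622718, minus strand): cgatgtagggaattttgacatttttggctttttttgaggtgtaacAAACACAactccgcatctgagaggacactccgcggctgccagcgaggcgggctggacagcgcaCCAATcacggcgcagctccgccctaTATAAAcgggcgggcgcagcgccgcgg
Hist1h2ai (RefSeq H2ac13, chr13:21716252-21716411, plus strand): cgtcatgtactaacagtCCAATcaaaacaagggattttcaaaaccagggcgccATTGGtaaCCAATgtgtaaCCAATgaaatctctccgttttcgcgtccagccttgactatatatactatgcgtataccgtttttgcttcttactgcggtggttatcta
Hist3h2ba (RefSeq H2bu2, chr11:58948751-58948910, plus strand): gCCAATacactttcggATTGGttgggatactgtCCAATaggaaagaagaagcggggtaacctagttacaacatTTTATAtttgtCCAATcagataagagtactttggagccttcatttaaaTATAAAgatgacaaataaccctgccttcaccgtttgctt
Hist1h3h (RefSeq H3c10, chr13:21717468-21717627, plus strand): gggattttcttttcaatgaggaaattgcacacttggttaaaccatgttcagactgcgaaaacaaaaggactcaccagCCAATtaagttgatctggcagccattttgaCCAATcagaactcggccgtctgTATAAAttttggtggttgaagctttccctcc
Hist1h4n (RefSeq H4c18, chr13:21832198-21832357, minus strand): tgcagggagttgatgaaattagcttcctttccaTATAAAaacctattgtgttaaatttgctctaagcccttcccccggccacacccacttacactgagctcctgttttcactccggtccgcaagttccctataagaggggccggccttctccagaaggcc
The Hist1h4n stretch holds no CCAAT, and the other 4 stretches hold at least 1. A match of letters is a description and was not tested as a binding site.

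Total counts were between 25748897 and 38128366 per library, and the members held 0.00285 to 0.00675% of them in 17 libraries. The remaining library, day 0 Dox replicate 2, stood apart with 0.0138% (Wilson 95% interval 0.0134 to 0.0143%, counting error only). The rRNA gene CT010467.1, whose RNA has no poly(A) tail, took 4.76% of that library and 0.144 to 0.483% of each other library. Rnaseh1 averaged 153 ± 17.6 CPM in day 0 Dox cells and 28.3 ± 2.28 CPM in control cells (SD, n = 3 each). In Dox and control gastruloids it averaged 68.1 ± 2.05 and 23.5 ± 1.06 CPM at day 3, and 57.1 ± 3.35 and 19.7 ± 0.372 CPM at day 5. The summed level of 7 embryonic stem cell markers was 5160 to 5330 CPM in Dox cells and 5210 to 5230 CPM in control cells at day 0, and 263 to 278 CPM in Dox and 275 to 282 CPM in control gastruloids at day 5. The sum of 4 neural tube markers was 782 to 864 CPM in Dox and 851 to 876 CPM in control gastruloids at day 5, that of 5 primitive streak markers 499 to 626 CPM and 650 to 888 CPM at day 3, and that of 4 blood markers at most 1.13 CPM in any library.

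Few members carried most of the signal. Over the 18 libraries 42 members had a mean of at least 1 TPM, which is scaled for transcript length and so can be compared between genes. Hist1h2ap led with 29.5 TPM, 15.3% of the summed level of all members, followed by Hist1h2ah (22.2 TPM), Hist1h3h (13.2 TPM), Hist1h2bk (9.84 TPM) and Hist1h2ai (7.64 TPM). These 5 made up 42.8% of the sum and the first 15 made up 64.9%. No count in any library was found for 3 members, Hist1h2aa and Hist1h2ba, which encode testis-specific H2A and H2B, and Hist1h2ao. The reading frame of Hist1h2ao is identical to that of Hist1h2ap, so reads from this frame cannot be told apart. The absence of counts therefore does not show that Hist1h2ao was silent. In all, 54 members passed the filter on low counts (5 H1, 15 H2A, 14 H2B, 11 H3 and 9 H4), and the 16 that did not include the testis-specific linker histone gene Hist1h1t. Of the values above 0, 83.2% of those of members were not whole numbers, against 17.5% of those of other genes, since reads that match several copies were shared out between them. A copy of the same length with at least 98% identity exists for 38 of the 70 members, so levels of single copies are uncertain, and 4 of the 54 tested members (Hist1h1a, Hist1h1b, Hist2h2be and Hist4h4) had whole counts in every library.

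The summed level of all 70 members, in TMM-scaled CPM, was 30.4, 155 and 36.7 CPM in Dox libraries, against 32.0, 33.1 and 30.2 CPM in control libraries at day 0. At day 3 it was 54.6, 52.8 and 55.5 CPM in Dox libraries, against 50.6, 50.1 and 59.7 CPM in control libraries, and at day 5 48.5, 64.2 and 61.6 CPM in Dox libraries, against 40.1, 62.4 and 64.1 CPM in control libraries. Day 0 Dox replicate 2 lay above every other library, day 5 control replicate 1 was the lowest of its day, and all day 3 and day 5 libraries lay above the other 5 day 0 libraries. Over the control groups the day 3 mean was 1.68 times and the day 5 mean 1.75 times that of day 0. By class, the day 3 to day 0 ratio of the control means was 2.27 for H3, 1.99 for H2B, 1.61 for H2A, 1.41 for H4 and 0.928 for H1, whereas from day 3 to day 5 the sums of H1 (1.59), H4 (1.25) and H2A (1.13) were higher and those of H2B (0.850) and H3 (0.818) lower. Summed in TPM, the day 3 to day 0 ratios were 2.95 for H3, 2.69 for H2B, 1.86 for H2A, 1.55 for H4 and 1.01 for H1, so that H1 turned. These ratios of sums carry no test. In CPM the day 3 and day 5 control libraries overlapped in H1, H4, H2A and H3. The lowest day 5 control library had 2.98 CPM for H1, 4.17 CPM for H4 and 17.8 CPM for H2A. The lowest day 3 control library had 3.03, 4.39 and 17.5 CPM. The Dox to control ratio of the summed level was 2.33 at day 0 with replicate 2 and 1.06 without it, 1.02 at day 3 and 1.05 at day 5.

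**Figure D1:**
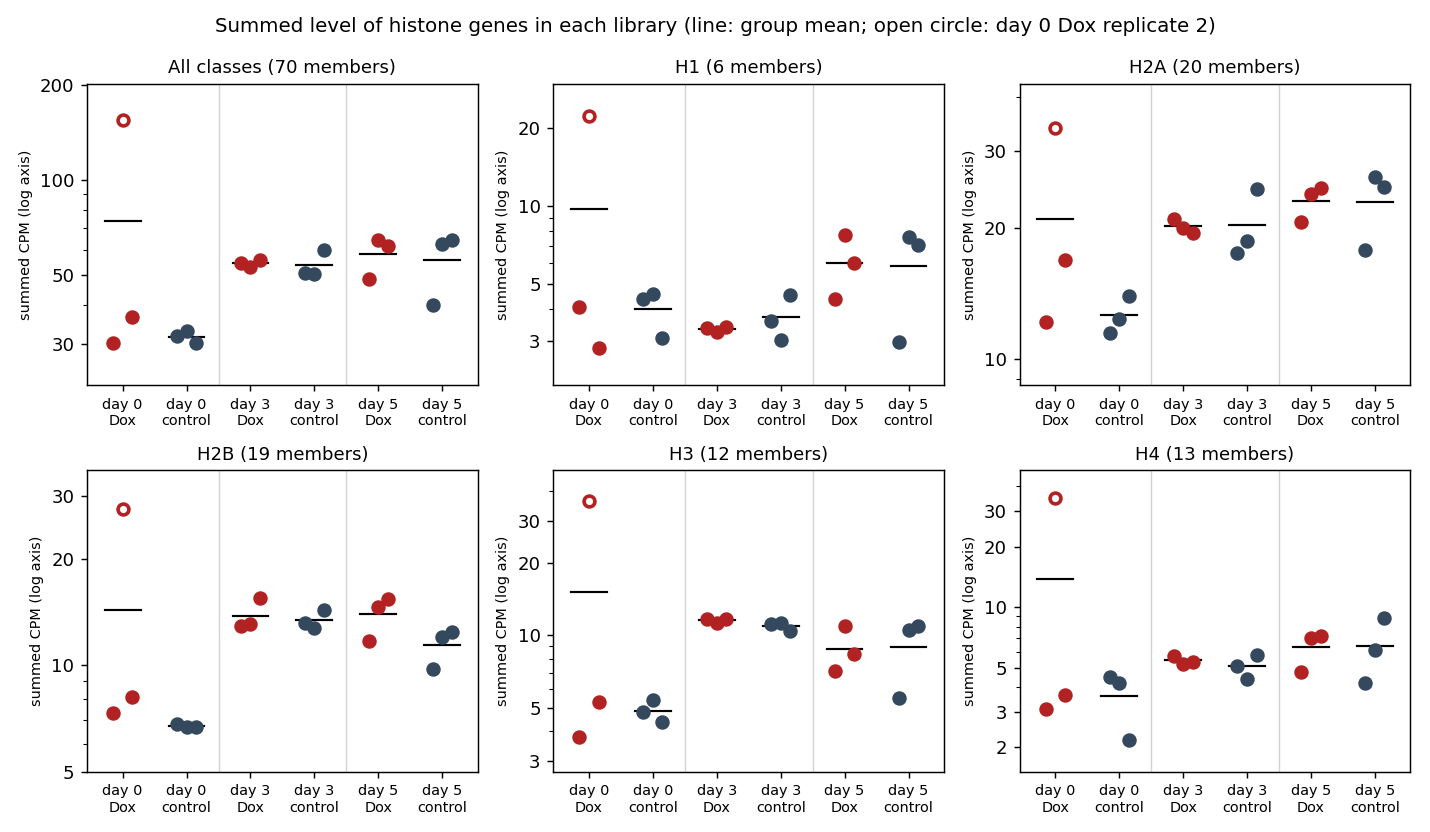
Summed level of the members of each histone class in each library, in TMM-scaled CPM on a log axis, with Dox left of control at days 0, 3 and 5. Points are libraries, lines are group means and the open circle is day 0 Dox replicate 2, which lies above every other day 0 library in all 5 classes and reached 155 CPM for all members together, while the other 17 libraries lay between 30.3 and 64.2 CPM.

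In day 0 Dox replicate 2, 44 of the 54 tested members were above each of the 5 other day 0 libraries and at least 2 times their mean, as were 425 of the 17795 genes tested (2.39%). The median ratio of that library to the mean of the other 5 was 6.63 over the members and 0.983 over all genes. All 11 tested H3 members (median ratio 9.09), all 5 H1 members (12.5) and 8 of 9 H4 members (12.8) met the rule, and so did 10 of 15 H2A (2.93) and 10 of 14 H2B members (4.98). The highest ratios of tested members were 26.0 for Hist1h1b, 20.5 for Hist2h3b and 18.8 for Hist1h4n. The 10 exceptions were Hist1h2aj and Hist2h2aa2, with no count in that library, Hist2h2be (0.405), Hist1h2br (1.04), Hist3h2a (1.05), Hist1h2bc (1.61), Hist1h2ap (1.63), Hist3h2ba (1.63), Hist1h2ai (1.81) and Hist1h4i (1.89). Hist2h2aa2 and Hist1h2br share their reading frames with Hist2h2aa1 and Hist1h2bq, which met the rule. The sum of Hist2h2aa1 and Hist2h2aa2 was 7.33 CPM in that library and 1.2 to 1.74 CPM in the other 5. That of Hist1h2bq and Hist1h2br was 2.92 CPM against 0.456 to 1.17 CPM. This library was set apart because its RNA without a poly(A) tail was high, so a count of such genes restates that choice. Of 17 such genes with a count, 12 had their highest level of all 18 libraries there, and the same count over all genes is not given. Only 6 of the listed genes passed the filter on low counts, and none of these was called for Dox at day 0. The part of this RNA in the histone levels was not tested. By annotated 3′ end, the median ratio was 6.07 over the 16 tested members that end near the stem-loop, 7.46 over the 19 that run on and 4.89 over the 19 without the letters.

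**Figure D2:**
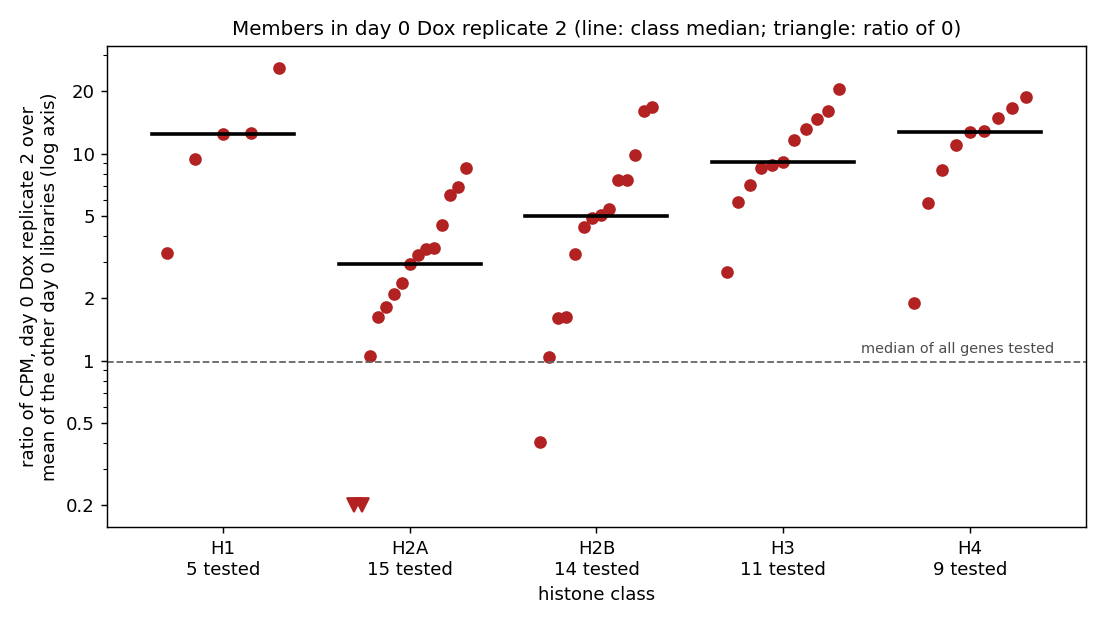
Ratio of CPM in day 0 Dox replicate 2 to the mean of the 5 other day 0 libraries for each tested member, by class, on a log axis, with class medians as lines and the 2 members without a count in that library as triangles. The class medians lie between 2.93 (H2A) and 12.8 (H4), and the dashed line marks the median of 0.983 over all genes tested.

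At day 0 no member passed the threshold, an edgeR p under 0.05 after Benjamini-Hochberg adjustment over the 17795 genes tested, for Dox against control (0.292% of all genes tested were called higher and 0.747% lower). The median log2 fold change was 1.45 over the members, 51 of 54 being positive, and 29 had an unadjusted p under 0.05. The share of all genes with such an unadjusted p is not given, here or for the counts that follow. These counts therefore do not say whether members differed from other genes. Without replicate 2 the median was -0.06, 25 of 54 were positive, 3 had an unadjusted p under 0.05 and again none passed (0.121% of all genes were called higher and 0.296% lower). The class medians with that library were 2.20 for H1, 1.99 for H3, 1.80 for H4, 1.32 for H2B and 0.68 for H2A, and without it they lay between -0.40 (H4) and 0.19 (H2A). Without the filter on low counts, and with that library, 25 members were called higher and 1 lower at day 0 (0.732 and 1.04% of all genes). The DESeq2 fit called Hist1h4d (3.10) and Hist1h2bk (1.62) higher in Dox cells with that library in the fit. At day 3 no member passed either (0.0169% of all genes were called higher and 0.0% lower), with a median of 0.05, 1 unadjusted p under 0.05 and no DESeq2 call. At day 5, when 2.39% of all genes were called higher and 2.34% lower, 1 member was called higher, Hist1h2br, none lower, and the median was 0.04. The DESeq2 fit, which gave Hist1h2br no adjusted p, called none at day 5. Tests of whether the Dox effect differed between days called no member in any of the 3 pairs of days, where 0.0393 and 0.0169% of all genes were called higher and lower for day 3 against day 0, 1.76 and 1.52% for day 5 against day 0, and 0.354 and 0.466% for day 5 against day 3. Unadjusted p was under 0.05 for 12, 17 and 4 members in these tests, and the member medians were -1.5, -1.38 and 0.07. The 2 tests against day 0 use day 0 Dox replicate 2. Without that library again no member was called in any of the 3 tests (share of all genes not given).

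**Figure D3:**
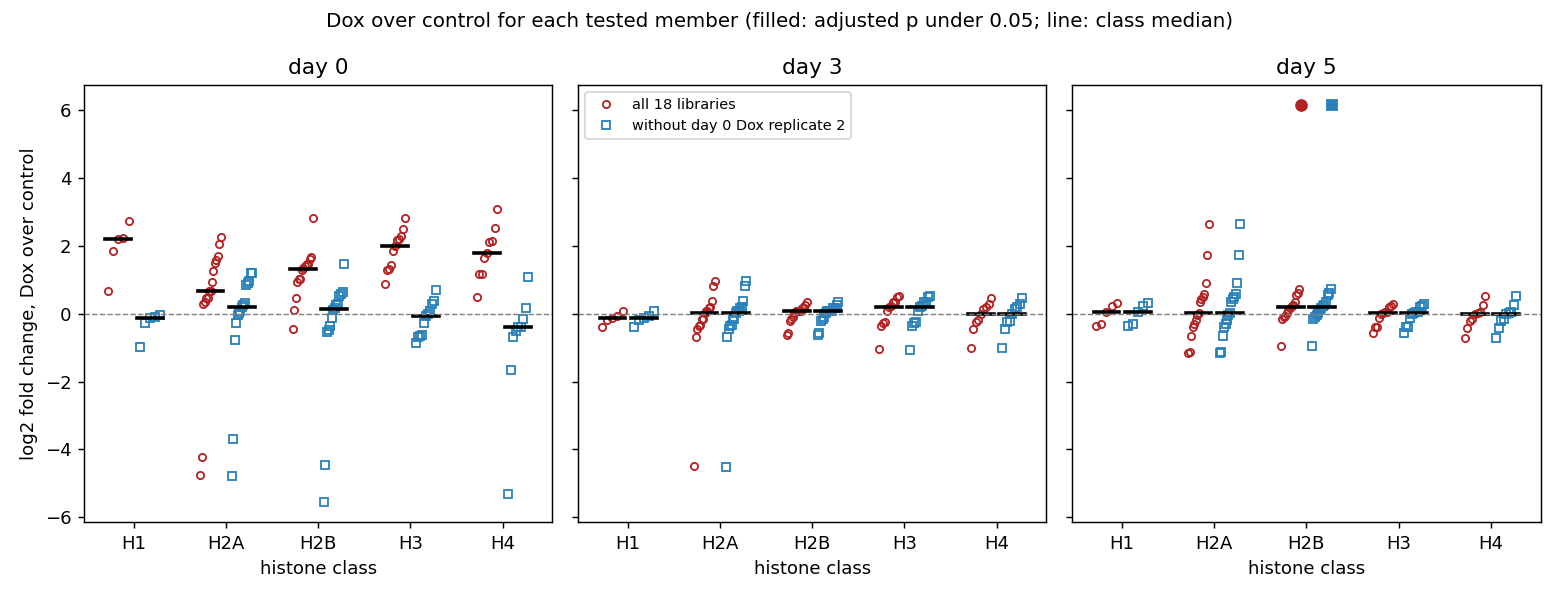
Log2 fold change of Dox over control at days 0, 3 and 5 for each tested member, by class, with all 18 libraries (circles) and without day 0 Dox replicate 2 (squares). Filled points passed the threshold and lines are class medians, which at day 0 lie between 0.68 and 2.20 with that library and between -0.40 and 0.19 without it.

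Without Dox, 16 members were called higher and 2 lower at day 3 than at day 0, when 37.2% of all genes were called higher and 36.3% lower. The median log2 fold change of the members was 0.98, against 0.02 over all genes. From day 3 to day 5, 2 members were called higher and 5 lower (31.7 and 33.1% of all genes), with a member median of 0.10. At day 5, 11 members were higher and 2 lower than at day 0 (38.9 and 40.3% of all genes), with a member median of 1.13. The shares of members called higher, 29.6% from day 0 to day 3 and 20.4% from day 0 to day 5, were below those of all genes in this fit of all 18 libraries. Without day 0 Dox replicate 2 the first share was 38.9%, near the 37.0% of all genes. The second was then 46.3%, against 38.7% of all genes. Leaving day 0 Dox replicate 2 out of the fit gave 21 higher and 3 lower at day 3 over day 0 (37.0 and 36.1% of all genes). It gave 7 higher and 8 lower at day 5 over day 3 (31.4 and 32.9%), and 25 higher and 3 lower at day 5 over day 0 (38.7 and 40.2%). All 18, 7 and 13 calls made with that library were kept.

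**Figure D4:**
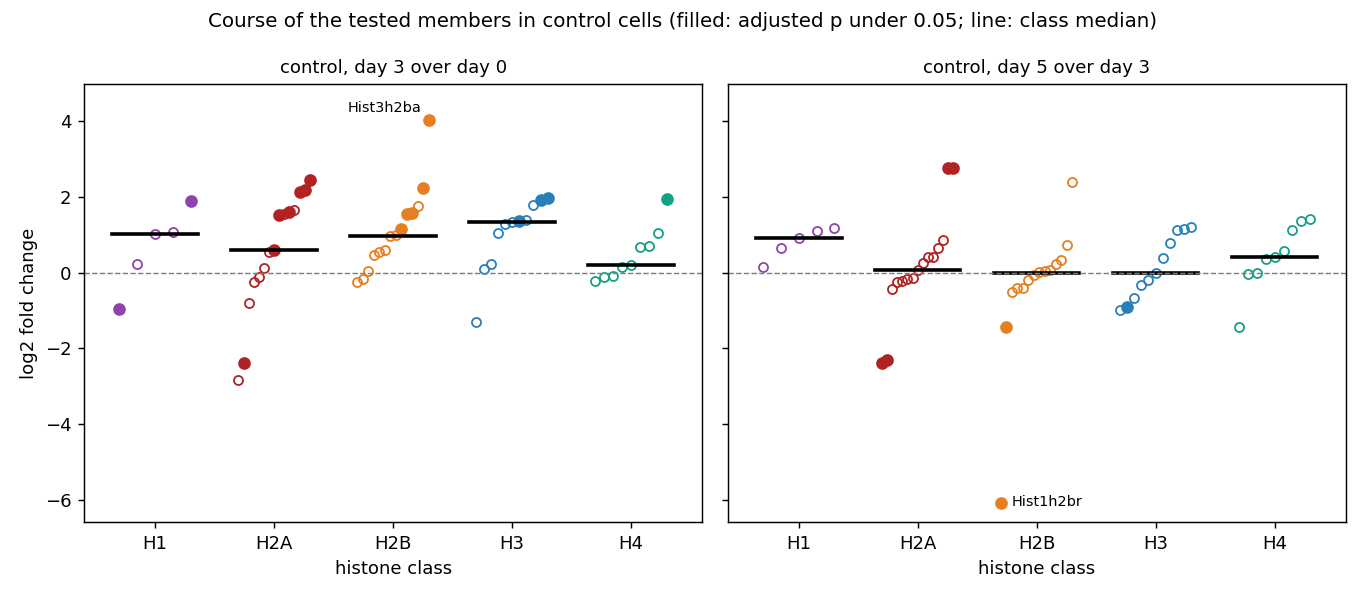
Log2 fold change of control libraries at day 3 over day 0 (left) and day 5 over day 3 (right) for each tested member, by class, with called members filled and class medians as lines. In this fit of all 18 libraries the called H2B and H3 members all lie above 0 at day 3 over day 0, and below 0 at day 5 over day 3.

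The H1 genes encode linker histones, which bind DNA between nucleosomes. Hist1h1c was the most abundant of them over all libraries (2.29 TPM). At day 0, Hist1h1c had 3.11, 9.16 and 1.86 CPM in Dox libraries, against 3.43, 3.02 and 2.43 CPM in control libraries. At day 3, Hist1h1c had 1.34, 1.28 and 1.53 CPM in Dox libraries, against 1.56, 1.26 and 1.72 CPM in control libraries. At day 5, Hist1h1c had 1.67, 2.90 and 1.62 CPM in Dox libraries, against 1.39, 1.65 and 1.93 CPM in control libraries. The day 3 control libraries lay below all day 0 control libraries (log2 fold change -0.97, SE 0.41, adjusted p = 0.0407). This call was lost with library size alone as scaling (adjusted p = 0.0715) and without day 0 control replicate 1 or 2 or any 1 of the 3 day 3 control libraries (adjusted p from 0.0577 to 0.12). Hist1h1a had a mean of 1.86 TPM. At day 0, Hist1h1a had 0.373, 4.76 and 0.365 CPM in Dox libraries, against 0.273, 0.623 and 0.262 CPM in control libraries. At day 3, Hist1h1a had 0.417, 0.678 and 0.391 CPM in Dox libraries, against 0.299, 0.308 and 0.768 CPM in control libraries. At day 5, Hist1h1a had 0.456, 0.854 and 0.722 CPM in Dox libraries, against 0.339, 1.11 and 1.16 CPM in control libraries. Apart from replicate 2 at day 0, Dox and control overlapped at each day. Hist1h1b had the highest ratio of the 54 tested members in that replicate. At day 0, Hist1h1b had 0, 2.30 and 0.109 CPM in Dox libraries, against 0.0780, 0.218 and 0.0374 CPM in control libraries. At day 3, Hist1h1b had 0.268, 0.250 and 0.180 CPM in Dox libraries, against 0.266, 0.154 and 0.307 CPM in control libraries. At day 5, Hist1h1b had 0.396, 0.518 and 0.722 CPM in Dox libraries, against 0.136, 0.856 and 0.566 CPM in control libraries. Apart from that replicate Dox and control overlapped at each day. Its Dox effect at day 0 was log2 fold change 2.74, SE 1.07, adjusted p = 0.281, and log2 fold change -0.97, SE 1.13, adjusted p = 0.832 without replicate 2. Hist1h1e was the 1 H1 member called higher in control gastruloids in the fit of all 18 libraries. Without day 0 Dox replicate 2 in the fit, Hist1h1a, Hist1h1b and Hist1h1d were called higher too at day 5 over day 0, and Hist1h1c lower. At day 0, Hist1h1e had 0.0829, 1.79 and 0.292 CPM in Dox libraries, against 0.156, 0.311 and 0.112 CPM in control libraries. At day 3, Hist1h1e had 0.774, 0.535 and 0.661 CPM in Dox libraries, against 0.896, 0.539 and 0.845 CPM in control libraries. At day 5, Hist1h1e had 1.03, 1.71 and 1.47 CPM in Dox libraries, against 0.745, 2.54 and 1.85 CPM in control libraries. All control libraries of day 3 and day 5 lay above those of day 0 (day 3 over day 0 log2 fold change 1.90, SE 0.755, adjusted p = 0.0302, day 5 over day 0 log2 fold change 3.08, SE 0.708, adjusted p = 0.000609). Dox and control libraries overlapped at days 3 and 5.

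The H2A genes encode a core histone that pairs with H2B, and they held the 2 most abundant members. At day 0, Hist1h2ap had 3.98, 7.29 and 5.94 CPM in Dox libraries, against 3.62, 4.17 and 4.68 CPM in control libraries. At day 3, Hist1h2ap had 7.29, 5.92 and 6.55 CPM in Dox libraries, against 5.01, 5.70 and 8.01 CPM in control libraries. At day 5, Hist1h2ap had 7.00, 8.60 and 8.92 CPM in Dox libraries, against 6.61, 8.81 and 9.62 CPM in control libraries. Each control library of day 3 and day 5 lay above each of day 0, and the gene rose by 0.59 (adjusted p = 0.0177) at day 3 and by 1.01 (adjusted p = 0.000241) at day 5, on the log2 scale. At day 0, Hist1h2ah had 3.40, 4.95 and 1.42 CPM in Dox libraries, against 1.91, 2.46 and 2.62 CPM in control libraries. At day 3, Hist1h2ah had 4.14, 3.75 and 2.59 CPM in Dox libraries, against 3.09, 2.7 and 4.53 CPM in control libraries. At day 5, Hist1h2ah had 4.71, 3.81 and 4.10 CPM in Dox libraries, against 3.63, 7.10 and 5.66 CPM in control libraries. Control libraries of day 5 lay above those of day 0 (log2 fold change 1.23, SE 0.331, adjusted p = 0.00238), and the day 3 libraries lay above those of day 0 without a call (log2 fold change 0.56, SE 0.337, adjusted p = 0.143). Hist1h2ai was highest at day 3 in control gastruloids. At day 0, Hist1h2ai had 0, 1.17 and 1.93 CPM in Dox libraries, against 0.702, 0.561 and 0.0374 CPM in control libraries. At day 3, Hist1h2ai had 0.833, 1.21 and 2.44 CPM in Dox libraries, against 0.963, 3.31 and 2.84 CPM in control libraries. At day 5, Hist1h2ai had 1.55, 1.52 and 1.50 CPM in Dox libraries, against 0.373, 0.729 and 0.283 CPM in control libraries. The control course passed both ways (day 3 over day 0 log2 fold change 2.45, SE 0.752, adjusted p = 0.00685; day 5 over day 3 log2 fold change -2.39, SE 0.731, adjusted p = 0.00796). At day 5 all Dox libraries lay above all control libraries, but the difference did not pass the threshold (log2 fold change 1.74, SE 0.752, adjusted p = 0.247), and it did in a fit of each day alone (adjusted p = 0.00629) and with no filter (adjusted p = 0.000966). The test of a different Dox effect at day 5 than at day 3 gave log2 fold change 2.41, SE 0.988, adjusted p = 0.47. With no filter this difference passed (edgeR adjusted p = 0.001), also when day 0 Dox replicate 2 was left out (1.39e-06).

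Other H2A members changed at low levels. Of those described here, Hist1h2al is annotated as a processed pseudogene and Hist1h2aj as an unprocessed pseudogene. At day 0, Hist1h2ae had 0.332, 1.29 and 0.620 CPM in Dox libraries, against 0.429, 0.467 and 0.861 CPM in control libraries. At day 3, Hist1h2ae had 1.52, 1.53 and 1.50 CPM in Dox libraries, against 1.23, 1.46 and 2.35 CPM in control libraries. At day 5, Hist1h2ae had 0.456, 0.579 and 0.837 CPM in Dox libraries, against 0.339, 0.127 and 0.514 CPM in control libraries. In both arms its day 3 libraries were the highest, and the control course was called higher from day 0 to day 3 (1.53, adjusted p = 0.00349) and lower from day 3 to day 5 (log2 fold change -2.32, SE 0.45, adjusted p = 0.000171). Hist1h2al ran the other way. At day 0, Hist1h2al had 0.373, 1.13 and 0.292 CPM in Dox libraries, against 0.273, 0.187 and 0.487 CPM in control libraries. At day 3, Hist1h2al had 0.0595, 0.143 and 0.0301 CPM in Dox libraries, against 0.0996, 0 and 0.0768 CPM in control libraries. At day 5, Hist1h2al had 0.0913, 0.244 and 0.202 CPM in Dox libraries, against 0.203, 0.317 and 0.669 CPM in control libraries. In control gastruloids all day 3 libraries lay below all libraries of day 0 and day 5 (day 3 over day 0 log2 fold change -2.40, SE 0.833, adjusted p = 0.0149; day 5 over day 3 log2 fold change 2.78, SE 0.785, adjusted p = 0.00456). The call at day 3 over day 0 was lost without day 0 control replicate 3 (-1.94, adjusted p = 0.075) and without day 3 control replicate 2 (-1.79, adjusted p = 0.0646). At day 0, Hist1h2aj had 0, 0 and 0 CPM in Dox libraries, against 0, 0.280 and 0 CPM in control libraries. At day 3, Hist1h2aj had 0, 0 and 0 CPM in Dox libraries, against 0.299, 0 and 0 CPM in control libraries. At day 5, Hist1h2aj had 0.456, 0.488 and 1.79 CPM in Dox libraries, against 0.407, 0.285 and 1.08 CPM in control libraries. All 6 libraries of day 5 had counts of this gene, and 2 of the 12 others did. The control call of day 5 over day 3 (log2 fold change 2.76, SE 1.11, adjusted p = 0.0423) was lost with the replicate number as a block (2.61, adjusted p = 0.0532), in DESeq2 (adjusted p = 0.343) and without day 3 control replicate 2 or 3 or day 5 control replicate 1 or 3. The reading frame of Hist2h2aa2 is identical to that of Hist2h2aa1. At day 0, Hist2h2aa2 had 0, 0 and 0.0729 CPM in Dox libraries, against 0, 1.03 and 0.562 CPM in control libraries. At day 3, Hist2h2aa2 had 0.327, 0.107 and 0 CPM in Dox libraries, against 0, 0 and 0.205 CPM in control libraries. At day 5, Hist2h2aa2 had 0, 0.732 and 0.462 CPM in Dox libraries, against 0, 0.190 and 0 CPM in control libraries. Counts were found in 2 control libraries at day 0 and in 1 at day 5, so the groups overlapped. The control call of day 5 over day 0 (log2 fold change -3.09, SE 1.37, adjusted p = 0.046) was lost in DESeq2 (adjusted p = 0.303), with library size alone as scaling (0.0598) and in 8 of the fits that left out 1 library. The summed level of both copies was 1.18 ± 0.289 CPM in day 5 and 1.63 ± 0.107 CPM in day 0 control libraries (SD, n = 3 each).

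The H2B genes encode the partner of H2A and held the largest rise in the control course. Hist3h2ba, on chromosome 11 (58948920 to 58949533, plus strand), averaged 4.40 TPM over all libraries. At day 0, Hist3h2ba had 0.166, 0.273 and 0.365 CPM in Dox libraries, against 0.117, 0 and 0.187 CPM in control libraries. At day 3, Hist3h2ba had 1.40, 1.21 and 1.80 CPM in Dox libraries, against 1.66, 1.33 and 1.95 CPM in control libraries. At day 5, Hist3h2ba had 2.25, 2.93 and 3.32 CPM in Dox libraries, against 2.00, 1.49 and 1.67 CPM in control libraries. Every library of days 3 and 5 lay above every library of day 0 (log2 fold change 4.05, SE 0.455, adjusted p = 1.84e-07 for control day 3 over day 0, and log2 fold change 4.11, SE 0.455, adjusted p = 1.16e-07 for control day 5 over day 0). In the Dox arm it rose by 2.43 (adjusted p = 1.74e-05) from day 0 to day 3 and by a further 0.94 (adjusted p = 0.00786) to day 5, on the log2 scale. At day 5 all Dox libraries lay above all control libraries without passing the threshold (log2 fold change 0.72, SE 0.283, adjusted p = 0.184), and in a fit of each day alone the adjusted p was 0.0401. This gene was among the 10 exceptions in day 0 Dox replicate 2. Hist2h2be, an H2B variant gene known in mouse for its expression in olfactory neurons, was another of them. At day 0, Hist2h2be had 0.249, 0.195 and 0.656 CPM in Dox libraries, against 0.390, 0.623 and 0.487 CPM in control libraries. At day 3, Hist2h2be had 1.07, 1.07 and 1.29 CPM in Dox libraries, against 1.40, 0.899 and 1.10 CPM in control libraries. At day 5, Hist2h2be had 1.79, 1.89 and 2.54 CPM in Dox libraries, against 1.63, 1.55 and 1.11 CPM in control libraries. Its control libraries of day 3 and day 5 lay above those of day 0, with log2 fold changes of 1.15 and 1.48. At day 5 all Dox libraries of Hist2h2be lay above all control libraries, without a call. Hist1h2bp went the other way there without a call, with at most 0.243 CPM in Dox and at least 0.253 CPM in control libraries. So did Hist2h2ac, which did not pass the filter (at most 0.213 against at least 0.237 CPM). The share of all genes without overlap between Dox and control libraries is not given, here or for other members.

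Hist1h2bk was the most abundant H2B member. At day 0, Hist1h2bk had 1.24, 5.69 and 1.31 CPM in Dox libraries, against 1.05, 0.717 and 0.936 CPM in control libraries. At day 3, Hist1h2bk had 2.89, 2.78 and 3.13 CPM in Dox libraries, against 2.59, 2.47 and 2.81 CPM in control libraries. At day 5, Hist1h2bk had 1.98, 1.92 and 2.05 CPM in Dox libraries, against 1.39, 2.41 and 1.70 CPM in control libraries. It was highest at day 3 in both arms apart from day 0 Dox replicate 2, and rose by 1.55 on the log2 scale in control gastruloids from day 0 to day 3 (adjusted p = 0.00337). All 3 Dox libraries lay above all control libraries at day 0 (log2 fold change 1.62, SE 0.438, adjusted p = 0.0899, and log2 fold change 0.52, SE 0.251, adjusted p = 0.478 without replicate 2). At day 0, Hist1h2bj had 0.166, 1.56 and 0.729 CPM in Dox libraries, against 0.195, 0.374 and 0.299 CPM in control libraries. At day 3, Hist1h2bj had 1.43, 1.36 and 2.25 CPM in Dox libraries, against 1.26, 1.46 and 1.46 CPM in control libraries. At day 5, Hist1h2bj had 0.335, 0.732 and 0.664 CPM in Dox libraries, against 0.407, 0.507 and 0.617 CPM in control libraries. Its day 3 libraries lay above all control libraries of days 0 and 5, and it passed both ways (day 3 over day 0 log2 fold change 2.23, SE 0.503, adjusted p = 0.000581; day 5 over day 3 log2 fold change -1.43, SE 0.452, adjusted p = 0.00963).

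Hist1h2br was the 1 member called in a Dox comparison. At day 0, Hist1h2br had 0.207, 0.195 and 0.182 CPM in Dox libraries, against 0.273, 0.125 and 0.150 CPM in control libraries. At day 3, Hist1h2br had 0.357, 0 and 0.511 CPM in Dox libraries, against 0.166, 0.205 and 0.409 CPM in control libraries, and Dox and control overlapped at both days. At day 5, Hist1h2br had 0.243, 0.274 and 0.318 CPM in Dox libraries, against 0, 0 and 0 CPM in control libraries. These levels came from estimated counts of 7.63, 8.51 and 11.1 in the Dox libraries and none in the control libraries. The fitted log2 fold change was 6.15 (SE 1.4, adjusted p = 0.0151), which depends on the prior count. Against a floor of 3 counts per library the Dox level was at least 2.92-fold higher. The call was lost without day 5 control replicate 2 (adjusted p = 0.0519), day 5 control replicate 3 (0.0726) or day 5 Dox replicate 3 (0.0553), the gene did not pass a filter of 1 CPM, and the difference of the Dox effect at day 5 from that at day 0 did not pass the threshold (log2 fold change 6.03, SE 1.72, adjusted p = 0.0696). With the replicate number as a block that difference was 6.10 with an adjusted p of 0.0488. Its reading frame is identical to that of Hist1h2bq, with which it shares reads, and Hist1h2bq had 0.669, 0.610 and 0.780 CPM in Dox libraries, against 0.373, 0.824 and 0.437 CPM in control libraries at day 5. The sum of both copies was 0.913, 0.884 and 1.10 CPM in Dox libraries, against 0.373, 0.824 and 0.437 CPM in control libraries, with no overlap. The fold between the group means of this sum was smaller than for Hist1h2br alone. The fall of Hist1h2br in control gastruloids at day 5, to no count against 0.166 to 0.409 CPM at day 3, rests on the same 3 libraries.

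H3 and H4 form the tetramer at the centre of the nucleosome. Hist1h3h was the most abundant H3 member. At day 0, Hist1h3h had 0.829, 5.46 and 0.985 CPM in Dox libraries, against 0.896, 0.934 and 1.05 CPM in control libraries. At day 3, Hist1h3h had 2.50, 2.85 and 3.88 CPM in Dox libraries, against 3.39, 3.77 and 3.76 CPM in control libraries. At day 5, Hist1h3h had 1.40, 2.44 and 1.59 CPM in Dox libraries, against 1.46, 2.28 and 1.75 CPM in control libraries. Control libraries of day 3 lay above all of day 0 and day 5 (day 3 over day 0 log2 fold change 1.92, SE 0.489, adjusted p = 0.00169), and the decline to day 5 (-0.99, adjusted p = 0.0589) passed only without day 0 Dox replicate 2 (adjusted p = 0.00059). Hist1h3c followed the same course. At day 0, Hist1h3c had 0.788, 2.57 and 1.42 CPM in Dox libraries, against 0.702, 0.872 and 1.01 CPM in control libraries. At day 3, Hist1h3c had 3.12, 3.17 and 3.28 CPM in Dox libraries, against 2.56, 2.41 and 1.82 CPM in control libraries. At day 5, Hist1h3c had 1.49, 1.40 and 1.21 CPM in Dox libraries, against 0.576, 1.62 and 1.36 CPM in control libraries. Its control libraries passed both ways (day 3 over day 0 log2 fold change 1.4, SE 0.349, adjusted p = 0.00158; day 5 over day 3 log2 fold change -0.91, SE 0.328, adjusted p = 0.0207). At day 3 all Dox libraries lay above all control libraries, without a call (log2 fold change 0.50, SE 0.306, adjusted p = 1.0). At day 0, Hist1h3i had 0.0415, 2.26 and 0.292 CPM in Dox libraries, against 0.585, 0 and 0.412 CPM in control libraries. At day 3, Hist1h3i had 1.31, 0.892 and 0.812 CPM in Dox libraries, against 0.232, 0.514 and 1.56 CPM in control libraries. At day 5, Hist1h3i had 0.639, 0.610 and 0.866 CPM in Dox libraries, against 0.339, 1.27 and 0.463 CPM in control libraries. Libraries of 1 group spread widely and overlapped between groups at each day apart from replicate 2 at day 0, and Hist1h3i had no call against control or in the control course. Hist2h3b lies in the Hist2 cluster. At day 0, Hist2h3b had 0.0829, 2.07 and 0.0729 CPM in Dox libraries, against 0, 0.311 and 0.0374 CPM in control libraries. At day 3, Hist2h3b had 0.536, 0.357 and 0.271 CPM in Dox libraries, against 0.232, 0.308 and 0.435 CPM in control libraries. At day 5, Hist2h3b had 0.182, 1.01 and 0.462 CPM in Dox libraries, against 0.373, 0.887 and 0.900 CPM in control libraries. Its control libraries of day 5 lay above those of day 0 (log2 fold change 2.48, SE 1.05, adjusted p = 0.0388), and the call was lost without day 0 control replicate 1 or 3 or day 5 control replicate 2 or 3 (adjusted p from 0.0797 to 0.117).

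The H4 genes had the highest median ratio of the classes in day 0 Dox replicate 2 and had few calls elsewhere. Hist1h4n was the most abundant of them (5.62 TPM). Its reading frame is identical to that of Hist1h4m, so reads from this frame cannot be told apart. At day 0, Hist1h4n had 0.166, 6.28 and 0.365 CPM in Dox libraries, against 0.351, 0.561 and 0.225 CPM in control libraries. At day 3, Hist1h4n had 0.684, 0.607 and 0.992 CPM in Dox libraries, against 0.896, 0.231 and 0.768 CPM in control libraries. At day 5, Hist1h4n had 0.608, 1.49 and 0.982 CPM in Dox libraries, against 0.542, 1.49 and 2.01 CPM in control libraries. Groups overlapped at every day apart from that replicate, and the day 0 Dox effect was log2 fold change 2.54, SE 0.923, adjusted p = 0.231 with it and log2 fold change -0.51, SE 0.758, adjusted p = 0.882 without it. At day 0, Hist1h4h had 0.166, 5.15 and 0.510 CPM in Dox libraries, against 0.741, 0.592 and 0.337 CPM in control libraries. At day 3, Hist1h4h had 0.744, 0.607 and 0.631 CPM in Dox libraries, against 0.564, 0.282 and 0.589 CPM in control libraries. At day 5, Hist1h4h had 0.304, 0.488 and 0.346 CPM in Dox libraries, against 0.339, 0.475 and 1.03 CPM in control libraries. Again 1 library lay far above the rest, and the other libraries overlapped between Dox and control at days 0 and 5. At day 3 all Dox libraries of this gene lay above all control libraries, without a call. At day 0, Hist1h4k had 0, 1.44 and 0 CPM in Dox libraries, against 0.117, 0.280 and 0.0374 CPM in control libraries. At day 3, Hist1h4k had 0.119, 0 and 0.120 CPM in Dox libraries, against 0.0996, 0.103 and 0.307 CPM in control libraries. At day 5, Hist1h4k had 0.730, 0.640 and 0.606 CPM in Dox libraries, against 0.203, 0.412 and 0.720 CPM in control libraries. Its day 5 libraries exceeded all day 3 libraries in the Dox arm (log2 fold change 2.92, SE 1.11, adjusted p = 0.0276) but not in the control arm. In the fit of all 18 libraries Hist1h4d was the 1 H4 member called in the control course, at day 3 over day 0 (log2 fold change 1.94, SE 0.801, adjusted p = 0.0362) and at day 5 over day 0 (1.91). Without day 0 Dox replicate 2 in the fit, Hist1h4n and Hist1h4k were also called higher at day 5 over day 0, and Hist1h4b lower at day 5 over day 3.

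**Figure D5:**
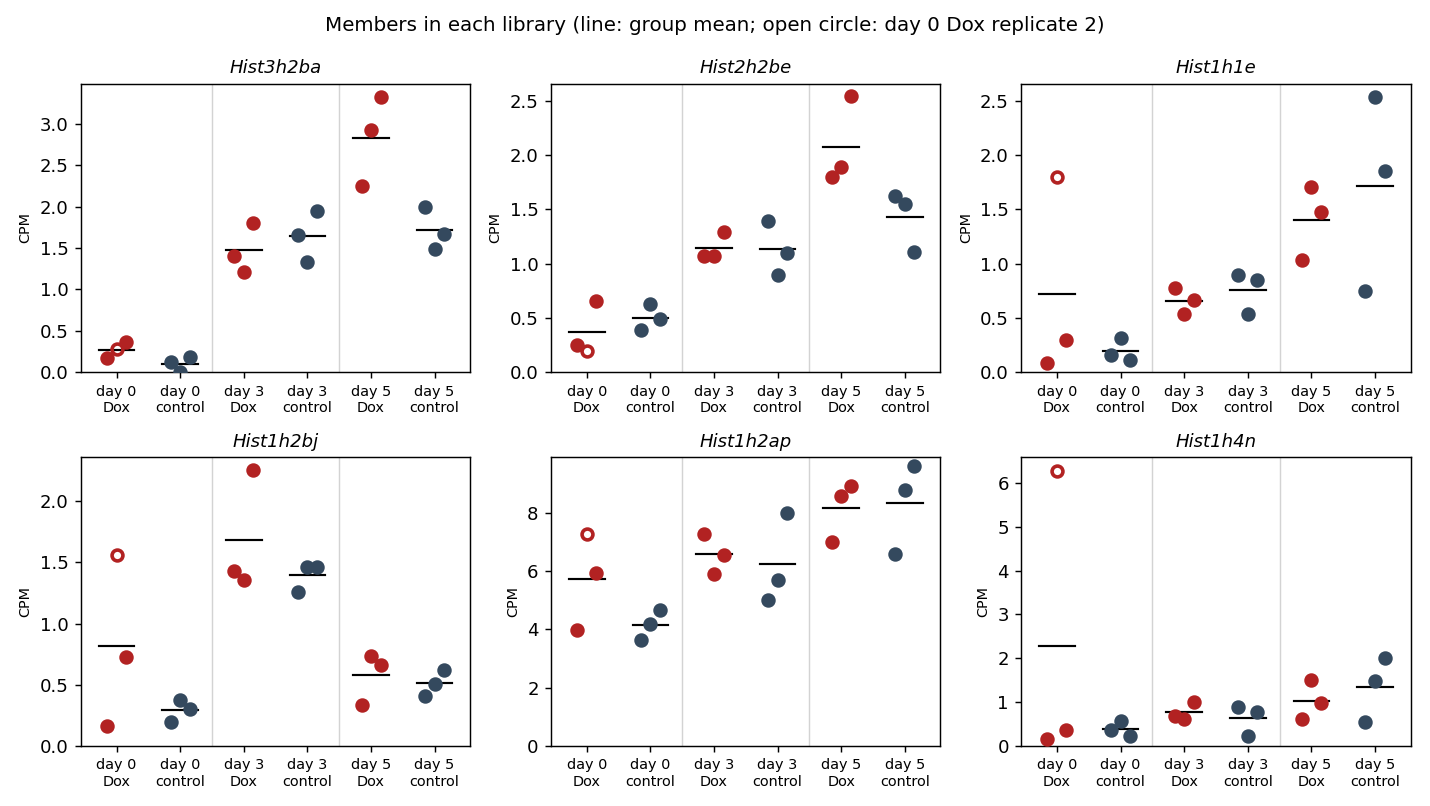
Level of 6 members in each library, in CPM on linear axes, with Dox left of control at days 0, 3 and 5. Points are libraries, lines are group means and the open circle is day 0 Dox replicate 2, in which Hist1h4n reached 6.28 CPM, while Hist3h2ba was higher in every day 3 and day 5 library than in any day 0 library.

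In Dox gastruloids the course depended on day 0 Dox replicate 2. With it, 6 members were called higher and 10 lower at day 3 than at day 0 (36.7 and 35.9% of all genes, member median -0.36), and without it 18 higher and 4 lower (34.8 and 34.7%, median 0.90). At day 5 against day 0 the counts were 5 higher and 7 lower with it (38.9 and 40.5%, median -0.44), and 23 higher and 1 lower without it (37.6 and 39.6%, median 1.01). Only 10 of the 16 calls at day 3 and 5 of the 12 at day 5 were made in both fits. The step from day 3 to day 5, which does not use that library, gave 5 higher and 5 lower with a median of 0.29 (32.2 and 32.9% of all genes), and all 10 were kept among the 11 higher and 8 lower called when the library was left out of the fit (32.0 and 32.7%). Higher in that step were Hist3h2ba, Hist3h2a (0.69), Hist2h2be (0.86), Hist1h4k and Hist1h2aj, which had no count in Dox libraries of day 3. Lower were Hist1h2bj (-1.54), Hist1h2ae (-1.27), Hist1h3c (-1.22), Hist1h2ag (-1.17) and Hist1h2bc (-0.57). Of these, Hist1h2bj, Hist1h2ae and Hist1h3c were also called lower in control gastruloids.

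Slbp, which binds the stem-loop, had 159 ± 4.79 CPM in Dox and 186 ± 7.61 CPM in control gastruloids at day 5 (SD, n = 3 each), a fall by 0.22 on the log2 scale (adjusted p = 0.0187). It was 1 of 23 genes of histone mRNA 3′ end processing and histone gene transcription to be called there, and none of the 23 was called at day 0 or day 3. For Dox at day 5, 2.39% of all genes were called higher and 2.34% lower. In control gastruloids 11 of the 23 rose and 6 fell from day 0 to day 3 and 13 rose and 5 fell from day 3 to day 5. Of all genes, 37.2% rose and 36.3% fell in the first of these steps, and 31.7% rose and 33.1% fell in the second, and the counts of this list and of those that follow are to be read beside these shares. Zfp473, a zinc finger protein of the histone pre-mRNA cleavage complex, had 16.9 ± 0.302, 22.7 ± 1.15 and 7.94 ± 0.828 CPM in control libraries of days 0, 3 and 5. E2f1, which drives S phase gene transcription, had 106 ± 11.7, 39.3 ± 1.32 and 57.2 ± 2.88 CPM. Of 20 S phase genes, 3 rose and 13 fell from day 0 to day 3, with a median log2 fold change of -0.25, while the members' median was 0.98. From day 3 to day 5, 14 of the 20 rose and 1 fell. Cdc45, a subunit of the replicative helicase, had 82.4 ± 4.51, 36.6 ± 0.314 and 62.4 ± 3.27 CPM at days 0, 3 and 5. In Dox gastruloids of day 5 the licensing factors Cdt1 (141 ± 5.06 against 164 ± 11.3 CPM in control, adjusted p = 0.0331) and Cdc6 (68.9 ± 1.83 against 79.1 ± 2.26 CPM in control, adjusted p = 0.0167) were called lower.

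The replication-independent histone genes, whose mRNAs are polyadenylated and which act outside S phase too, were described in the same way. Of 11 tested, 5 rose and 5 fell from day 0 to day 3 in control gastruloids, and 10 rose and none fell from day 3 to day 5. H2afy2, a macroH2A gene, had 36.5 ± 3.1, 57.2 ± 2.1 and 259 ± 4.85 CPM in control libraries of days 0, 3 and 5. The linker histone gene H1fx had 33.4 ± 2.14, 50.5 ± 3.07 and 150 ± 13.9 CPM, and H1f0 had 56.7 ± 2.25, 65.3 ± 2.26 and 126 ± 3.21 CPM. No gene of this group was called for Dox at any day. Of 17 histone chaperone and assembly genes 9 rose and 6 fell from day 0 to day 3 and 9 rose and 2 fell from day 3 to day 5, and none was called for Dox. The chaperone Asf1b had 52.5 ± 1.8, 29.7 ± 0.546 and 71.7 ± 3.79 CPM at days 0, 3 and 5 in control libraries.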

How the data were processed

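Per the labels' protocols, a stranded mRNA kit was used on poly(A) RNA. The submitters' processing notes list Trimmomatic, STAR 2.7.10a, RSEM 1.3.3, DESeq2 1.38.2 and build GRCm38. The role of each, the annotation release and the strand setting are not given in the sources used here. The authors deposited 1 gene table per library. Per the file headers, each table holds expected counts, that is, RSEM's estimate of reads per gene before any scaling. The deposited tables also hold TPM, used to compare genes, FPKM, which was not used, and transcript lengths, which gave no result. Reads shared by near-identical copies are split by estimation, so counts of single copies are uncertain. Symbols come from GENCODE M21 by gene ID.

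Expected counts were rounded for edgeR 4.0.16 under R 4.3.3, and quasi-likelihood tests were run on 1 model of all 18 libraries with 6 group means (12 residual degrees of freedom). TMM factors were 0.894 to 1.063, filterByExpr (counts of 10, totals of 15) retained 17795 genes, and the common biological coefficient of variation was 0.09. The threshold was a Benjamini-Hochberg adjusted p below 0.05. The fit was repeated without day 0 Dox replicate 2 (18220 genes tested). The rule for naming took the 3 members with the highest mean TPM of each class, members called in a Dox comparison, and up to 3 higher and 3 lower calls in each control comparison. From each gene list it took up to 4 called genes. Other members named were singled out after their values were seen. Members and gene lists were chosen with earlier results of these data known.

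A group without counts was set against a floor of 3 counts per library, and setting members at such bounds moved no member median by more than 0.03. Wilson intervals and floors cover counting error only. The labels give the replicate number as a batch tag, and they do not say whether same-numbered libraries share a culture. The main fit did not use this number, and an alternative took it as a block. With group means removed, same-numbered Dox and control libraries correlated across genes (not independent replicates) with r between 0.206 and 0.331 at day 0, where other pairs had -0.252 to 0.055. The values were 0.01 to 0.036 at day 3, with -0.043 to 0.02 in other pairs. They were 0.022 to 0.051 at day 5, with -0.057 to 0.02 in other pairs. Alternatives were this replicate block, DESeq2 1.42.0, other scalings and filters, each day alone, TPM for class sums, and leaving out each library. The scripts were tested on simulated data.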

Additional observations from a re-analysis of the deposited data

How the results depend on the processing

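Of 424 alternative values for the 16 called results of named members, 392 stayed past the threshold, 32 did not and none changed sign, and of 1279 for the 45 uncalled ones 15 passed and 56 changed sign without passing. The filter on low counts mattered most. The counts of called members given here and in the next paragraph compare settings and have no share of all genes beside them. They do not say whether members were called more often than other genes. With no filter 31013 genes were tested, against 17795 in the main fit, and for Dox at day 0 0.732% of them were called higher and 1.04% lower. With no filter the members called were 26 for Dox at day 0 (25 higher, 1 lower), 3 for Dox at day 5, 29, 17 and 36 for control day 3 over day 0, day 5 over day 3 and day 5 over day 0, and 32, 19 and 27 for the same steps in Dox gastruloids. The 3 differences of the Dox effect (day 3 against day 0, day 5 against day 3, day 5 against day 0) then had 10, 2 and 21 calls. With no filter and without day 0 Dox replicate 2, an alternative added after seeing the data as all those that join 2 choices were, the counts were 2 for Dox at day 0, 3 at day 5, 34, 20 and 37 for the control steps, 27, 24 and 26 for the Dox steps, and 2, 3 and 4 for the differences. A filter of at least 1 CPM in 3 libraries left 0 calls for Dox at day 5, 4 for control day 5 over day 3, 8 for control day 5 over day 0, and 9 and 7 for Dox day 3 and day 5 over day 0. The cause of these changes was not tested. DESeq2 called 2 members for Dox at day 0 and 0 at day 5, and a fit of each day alone called 2 at day 5.

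The replicate block called 1 member for the difference of the Dox effect between day 5 and day 0 (Hist1h2br), lost Hist1h2aj in control day 5 over day 3 and changed no other call of a named member and no other count by over 1.5 times. The block without day 0 Dox replicate 2 called 14 members for control day 5 over day 3, 30 for control day 5 over day 0, 18 for Dox day 5 over day 3 and 23 for Dox day 5 over day 0. Leaving out 1 library at a time gave 0 to 9 calls for Dox at day 0 (9 without Dox replicate 3, 6 without Dox replicate 1), 0 at day 3 and 0 to 1 at day 5. The control steps gave 13 to 24 (day 3 over day 0), 5 to 15 (day 5 over day 3) and 10 to 28 (day 5 over day 0), the Dox steps 12 to 28, 7 to 19 and 11 to 24, and the differences of the Dox effect 0, 0 and 0 to 4. Dox to control differences of the class sums moved by less than 1 SD between replicates with TPM and without day 0 Dox replicate 2. At day 0 that SD, 0.91 on the log2 scale for all classes, includes this library, without which the difference was 0.07, against 0.81 with it. Depth limits the single copies with few reads, such as Hist1h2br, whose call rests on estimated counts of 7.63, 8.51 and 11.1 in day 5 Dox libraries.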

Other observations

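The annotation places 14 pairs of H2A and H2B members head to head, with 173 to 306 bases between their starts. In control gastruloids at day 3 over day 0, both genes were called higher in the pairs Hist1h2ag (log2 fold change 1.60) with Hist1h2bj (2.23) and Hist1h2an (2.19) with Hist1h2bp (1.58). In 4 other pairs with both genes tested, 1 gene was called higher and its partner was not. These were Hist1h2ae (1.53) beside Hist1h2bg (-0.24), Hist1h2bk (1.55) beside Hist1h2ah (0.56), Hist1h2ai (2.45) beside Hist1h2bl (0.59), and Hist1h2ap (0.59) beside Hist1h2br (0.56). The difference within a pair was not tested, and near-identical copies share reads.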
